A study of Mus musculus with 48 samples.

Results

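The proteasome subunit genes of mouse liver are described here across 2 diets and 2 feeding durations. They were taken as every gene whose symbol is Psma, Psmb, Psmc, Psmd, Psme, Psmf or Psmg followed by a number, on probe sets with a single gene symbol, and this gave 47 genes of the 18193 on the array. The 47 genes were covered by 100 probe sets, and each gene was read through its brightest probe set. By role they comprised 7 alpha and 7 beta subunits of the constitutive 20S core, 6 ATPases and 11 other subunits of the 19S cap, the 3 immunoproteasome subunits Psmb8, Psmb9 and Psmb10, 3 assembly factors of the cap and 4 of the core, 3 activators, the inhibitor Psmf1, and Psma8 and Psmb11, core subunits known from testis and thymus. Psme2, a partner of the activator Psme1, shares its probe set with a second symbol and was therefore not measured under this rule.

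Male C57BL/6J mice arrived at an age of 6 to 7 weeks, were acclimatised for 2 weeks and all ate the L-P/C-HF diet for 10 weeks, so that every group was obese from diet, and the mice with the poorest glucose tolerance in the cohort were kept. They then stayed on L-P/C-HF (55% of energy as fat, 15% as protein, 30% as carbohydrate) or changed to H-P/C-HF (55% fat, 30% protein, 15% carbohydrate) for 2 days or 4 weeks, and liver RNA of each mouse was hybridised to 1 Affymetrix mouse array, 12 mice per group. The groups are called L-P/C-HF 2-d, H-P/C-HF 2-d, L-P/C-HF 4-wk and H-P/C-HF 4-wk, and the sample labels name them HFHC and HPHC, and HPHC was read as H-P/C-HF because of the high protein in its name. A lean or chow-fed group was not analysed here. Array B25 (H-P/C-HF 2-d) was left out because the study's quality tests had set it apart, which leaves 11 mice in that group and 47 in all, and B25 lay below every other H-P/C-HF 2-d array for 41 of the 47 genes. Longer feeding also means older mice killed on another day, and the 4-wk mice had a further fast and glucose tolerance test during feeding. Duration, age, day of death and this handling therefore cannot be told apart. Levels are the deposited log2 signals, on which a difference of 1 means a 2-fold difference.

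The proteasome degrades proteins that carry ubiquitin chains. Its 20S core is a barrel of alpha rings outside and beta rings inside, and the beta subunits Psmb5, Psmb6 and Psmb7 carry the catalytic sites, while the 19S cap recognises the ubiquitin chain, removes it and feeds the unfolded protein into the barrel with its ring of ATPases. Under interferon, new cores take up Psmb8, Psmb9 and Psmb10 in place of Psmb5, Psmb6 and Psmb7, which alters the peptides delivered to MHC class I, and the transcription factor Nfe2l1 is known to raise the constitutive subunits together through antioxidant response elements when proteasomes fall short. In liver the proteasome clears short-lived enzymes and regulators, beside autophagy.

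The 250 bases before the start site of RefSeq (GRCm38.p6) were available for 39 of the 47 genes, and windows of 6 of them are shown because the results below turn on these genes: the immunoproteasome subunits, which varied together between mice, the constitutive subunits Psmb5 and Psmb6 that 2 of them replace, and Psmd9, the cap assembly factor with the smallest p between durations in both diets. Bases run 5′ to 3′ on the gene's strand, and capitals mark matches to an antioxidant response element core (TGACNNNGC), an interferon-stimulated response element core (GAAA, any 2 bases, then GAAA again) or a CCAAT box (CCAAT), each searched on both strands.
Psmb8 (chr17:34197945-34198194, plus strand): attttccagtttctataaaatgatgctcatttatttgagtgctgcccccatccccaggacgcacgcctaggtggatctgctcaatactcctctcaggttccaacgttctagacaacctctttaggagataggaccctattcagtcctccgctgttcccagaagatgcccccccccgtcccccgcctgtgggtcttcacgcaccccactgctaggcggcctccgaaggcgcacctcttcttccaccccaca
Psmb9 (chr17:34187331-34187580, minus strand): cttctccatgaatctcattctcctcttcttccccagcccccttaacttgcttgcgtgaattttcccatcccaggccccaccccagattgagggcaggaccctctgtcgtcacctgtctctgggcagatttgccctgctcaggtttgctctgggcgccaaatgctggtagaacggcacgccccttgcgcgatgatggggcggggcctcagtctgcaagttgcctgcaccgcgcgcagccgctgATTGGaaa
Psmb10 (chr8:105938393-105938642, minus strand): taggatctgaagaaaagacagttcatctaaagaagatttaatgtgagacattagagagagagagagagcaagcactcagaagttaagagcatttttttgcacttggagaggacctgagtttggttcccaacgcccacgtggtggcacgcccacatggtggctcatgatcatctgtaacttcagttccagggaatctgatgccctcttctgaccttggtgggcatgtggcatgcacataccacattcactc
Psmb5 (chr14:54617996-54618245, minus strand): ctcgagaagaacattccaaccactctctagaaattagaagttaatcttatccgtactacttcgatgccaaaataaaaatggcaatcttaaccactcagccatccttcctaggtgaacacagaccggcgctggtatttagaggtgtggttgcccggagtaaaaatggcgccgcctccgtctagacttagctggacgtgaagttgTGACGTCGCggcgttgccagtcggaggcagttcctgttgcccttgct
Psmb6 (chr11:70525107-70525356, plus strand): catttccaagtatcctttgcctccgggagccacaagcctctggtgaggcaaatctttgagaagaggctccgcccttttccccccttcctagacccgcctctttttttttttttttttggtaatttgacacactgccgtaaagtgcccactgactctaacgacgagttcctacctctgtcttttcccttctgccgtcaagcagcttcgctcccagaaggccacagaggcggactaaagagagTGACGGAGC
Psmd9 (chr5:123227940-123228189, plus strand): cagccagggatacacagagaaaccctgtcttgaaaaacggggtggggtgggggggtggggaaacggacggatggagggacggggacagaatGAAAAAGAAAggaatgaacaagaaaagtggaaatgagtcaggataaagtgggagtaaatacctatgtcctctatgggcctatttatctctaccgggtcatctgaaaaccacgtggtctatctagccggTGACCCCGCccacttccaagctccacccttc

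The windows of Psmb5 and Psmb6 each hold an antioxidant response element core, TGACGTCGC 47 bases and TGACGGAGC 9 bases before the start. Psmd9 has such a core 31 bases before its start and an interferon-type match 159 bases before it, and these matches share no bases. Psmb9 has a CCAAT box on the opposite strand 8 bases before its start, and neither Psmb8 nor Psmb10 matched any of the letters searched. Other genes that rose between durations are not shown. Of these, Psmd8 and Psmd5 matched none of the letters, and Psmb7 and Psmd7 had no window. Psma1 has CCAAT boxes 98 and, on the opposite strand, 126 bases before its start. The windows shown are the first listed for each gene, whereas the counts take a match in any annotated window of a gene. Counted so, the antioxidant core was present in 5 of the 39 genes (12.8%), against 11.5% of 27025 genes with a window. The interferon-type core was present in 3 genes (7.69%), against 3.46%, and the CCAAT box in 14 genes (35.9%), against 37.5%. A match is a run of letters and not a shown binding site, and its absence from a window says nothing about the factor. In the same annotation Psmb9 lies beside Tap1, and Psmb8 lies between Tap1 and Tap2, which encode the transporter that carries proteasome products to MHC class I.

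Nearly the whole proteasome gave a clear signal in these livers. Mean levels ran from 5.53 for Psma8 to 12.11 for Psmd11, a scaffold subunit of the cap, around a median of 10.59, and array medians lay between 6.73 and 6.91. As a guide to detection, 45 of the 47 genes lay above 7.56, the median over all genes, and Psma8 and Psmb11 (6.55) lay below it. Probe sets differ in how strongly they bind, so levels of different genes were not set against each other. By class, mean levels were 10.42 to 11.87 for the 7 alpha subunits and 10.66 to 12.06 for the 7 beta subunits, 9.86 to 11.10 for the 6 ATPases, 8.95 to 12.11 for the 11 other cap subunits, 7.99 to 9.30 for the cap assembly factors and 9.14 to 10.18 for the immunoproteasome. Hepatocyte markers were high, with albumin between 14.38 and 14.70 in the 47 arrays. In whole liver, fewer cells of a type and less RNA per cell cannot be told apart.

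The immunoproteasome subunits lay at similar levels in all 4 groups. The lowest, median and highest levels of Psmb8, which takes the place of Psmb5, were 9.05, 9.54 and 9.87 in L-P/C-HF 2-d mice, 9.03, 9.46 and 9.90 in H-P/C-HF 2-d mice, 8.97, 9.28 and 10.04 in L-P/C-HF 4-wk mice and 9.05, 9.38 and 9.99 in H-P/C-HF 4-wk mice. For Psmb9, which takes the place of Psmb6, they were 8.64, 9.20 and 9.54 in L-P/C-HF 2-d mice, 8.83, 9.13 and 9.59 in H-P/C-HF 2-d mice, 8.75, 9.04 and 9.46 in L-P/C-HF 4-wk mice and 8.77, 9.16 and 9.64 in H-P/C-HF 4-wk mice. For Psmb10, which takes the place of Psmb7, they were 9.66, 10.27 and 10.62 in L-P/C-HF 2-d mice, 9.84, 10.18 and 10.67 in H-P/C-HF 2-d mice, 9.80, 10.12 and 10.62 in L-P/C-HF 4-wk mice and 9.90, 10.16 and 10.59 in H-P/C-HF 4-wk mice. The 4 groups overlapped over most of their range for all 3 genes, and mice within a group differed more than the groups did. The constitutive counterpart Psmb5, the chymotrypsin-like site, had lowest, median and highest levels of 11.52, 11.84 and 12.16 in L-P/C-HF 2-d mice, 11.58, 11.82 and 11.99 in H-P/C-HF 2-d mice, 11.66, 11.88 and 12.03 in L-P/C-HF 4-wk mice and 11.66, 11.84 and 12.25 in H-P/C-HF 4-wk mice. For Psmb6, the caspase-like site, they were 10.36, 10.96 and 11.25 in L-P/C-HF 2-d mice, 10.59, 10.92 and 11.10 in H-P/C-HF 2-d mice, 10.40, 10.95 and 11.07 in L-P/C-HF 4-wk mice and 10.70, 10.84 and 11.15 in H-P/C-HF 4-wk mice. For Psmb7, the trypsin-like site, they were 11.54, 11.96 and 12.24 in L-P/C-HF 2-d mice, 11.78, 12 and 12.07 in H-P/C-HF 2-d mice, 11.88, 12.21 and 12.32 in L-P/C-HF 4-wk mice and 11.99, 12.14 and 12.50 in H-P/C-HF 4-wk mice. Psmb5 and Psmb6 overlapped between all groups, and Psmb7 lay higher in both 4-wk groups, also with overlap.

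**Figure D1:**
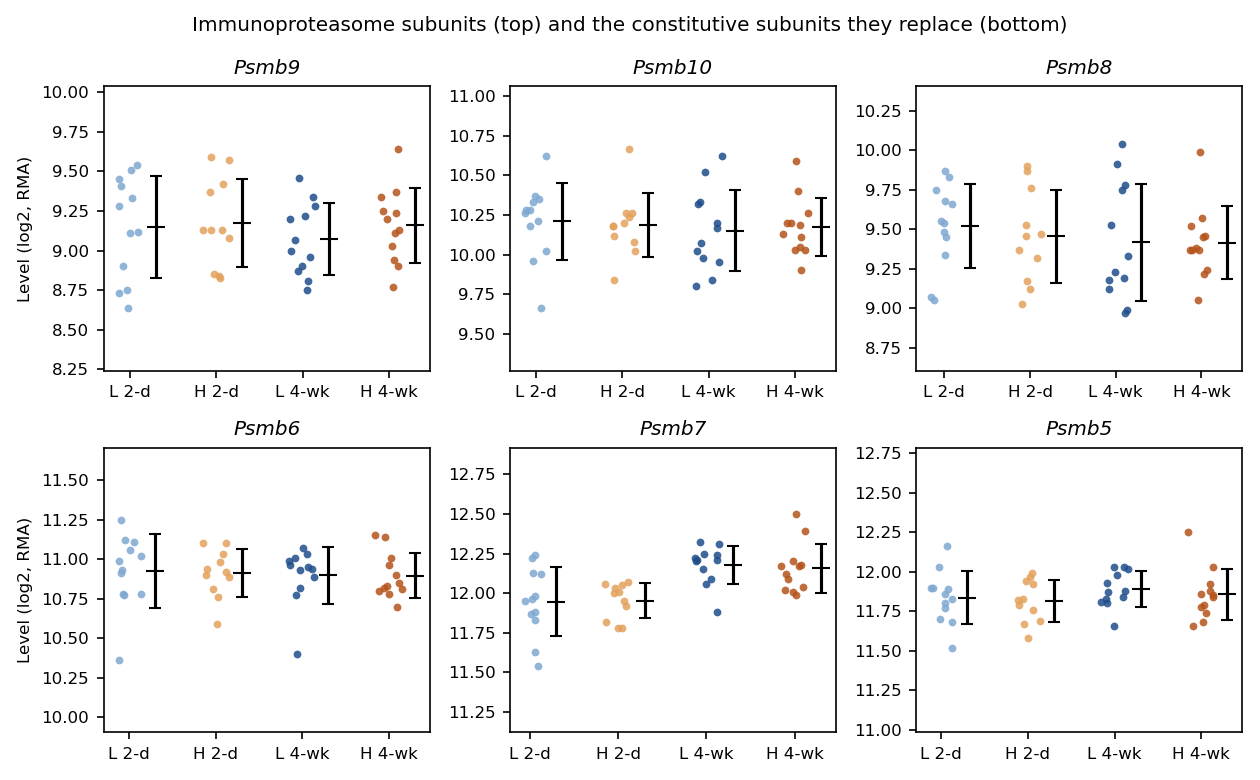
Level (log2 signal, vertical axis) of each immunoproteasome subunit (top) and of the constitutive subunit it replaces (bottom) in the 4 groups, where L is L-P/C-HF and H is H-P/C-HF, with 1 point per mouse and bars for the mean ± SD (n = 12, 11, 12 and 12). Each panel has its own level axis of the same length, and of these 6 genes only Psmb7 passed the test between durations, with means of 11.95 and 11.95 at 2-d against 12.18 and 12.16 at 4-wk.

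The first question was whether more dietary protein and less carbohydrate moved the proteasome, and no subunit gene passed the test at either duration. After 2-d, 0 of the 47 genes were higher and 0 lower in H-P/C-HF mice at an adjusted p under 0.05 (limma, Benjamini-Hochberg over 45037 probe sets), against 0.011% of all 18193 genes higher and 0.0055% lower. Without adjustment (p under 0.05) the counts were also 0 and 0, against 2.04% and 1.62% of all genes. The log2 changes, with positive values for higher levels in H-P/C-HF, were positive for 19 genes and negative for 28, with a median of -0.019 (0.006 over all genes). They ran from -0.11 for Psmd7, a lid subunit of the cap, to 0.17 for Psmd9. Over the 31 core and cap subunits the 95% intervals lay between -0.38 and 0.21.

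By class at 2-d, the alpha subunits ran from -0.06 (Psma4) to -0.01 (Psma5), the beta subunits from -0.02 (Psmb5) to 0.04 (Psmb4), the ATPases from -0.05 (Psmc5) to 0.04 (Psmc1), and the other cap subunits from -0.11 (Psmd7) to 0.04 (Psmd4). Psmb8 differed by -0.07 (standard error 0.12, 95% interval -0.31 to 0.17), Psmb9 by 0.03 (0.11, -0.19 to 0.25) and Psmb10 by -0.02 (0.09, -0.21 to 0.16). The activators Psme1, Psme3 and Psme4 lay between -0.08 and -0.07, the inhibitor Psmf1 was at 0.07, and the core assembly factors ran from -0.08 (Psmg3) to 0.04 (Psmg1). None of these intervals excluded 0.

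After 4-wk, 0 genes were higher and 0 lower at an adjusted p under 0.05, against 0% and 0% of all genes. At an unadjusted p under 0.05, 0 were higher and 1 was lower, against 0.83% and 2.16% of all genes. That gene was Psmb11, the thymus core subunit, at -0.11 (standard error 0.05, p = 0.0495, adjusted p = 0.999 from limma), and its signal lay below the median of all genes. Positive and negative log2 changes numbered 22 and 25, with a median of -0.002 (-0.016 over all genes). The core and cap subunits ran from -0.08 (Psmd14, the deubiquitinase of the cap) to 0.07 (Psmc1), and their 95% intervals lay between -0.27 and 0.27. Psmb8 differed by 0.00 (standard error 0.12, 95% interval -0.23 to 0.23), Psmb9 by 0.09 (0.11, -0.12 to 0.30) and Psmb10 by 0.02 (0.09, -0.16 to 0.20). Psme1 was at -0.05 and Psme4 at 0.02, and the core assembly factors ran from -0.07 (Psmg2) to 0.07 (Psmg3).

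The difference between the diet effects (4-wk minus 2-d) passed for 0 genes in either direction, against 0% and 0% of all genes, and 0 genes had an unadjusted p under 0.05, against 0.407% and 1.08%. Its smallest unadjusted p was 0.214, for Psmf1. Psmd9 had the highest log2 change in both diet comparisons, 0.17 after 2-d (standard error 0.10, 95% interval -0.03 to 0.37) and 0.15 after 4-wk (0.10, -0.04 to 0.34), and the L-P/C-HF median was exceeded by 7 of 11 and 10 of 12 of the mice on H-P/C-HF. With the RNA quality index described below as a covariate these changes were 0.17 and 0.19, each with a standard error of 0.07, and the unadjusted p fell under 0.05 for both (0.0168 and 0.00654 from limma), while the adjusted p was 1 for both. With the covariate, 1 of the 47 genes was higher and 0 lower at that unadjusted threshold after 2-d, against 401 and 334 of all 18193. After 4-wk 1 was higher and 1 lower, against 166 and 373. The 2 dimmer probe sets of Psmd9 gave 0.08 and 0.14 after 2-d and -0.01 and 0.15 after 4-wk, without the covariate. The plot of diet changes sets out all 47 genes.

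**Figure D2:**
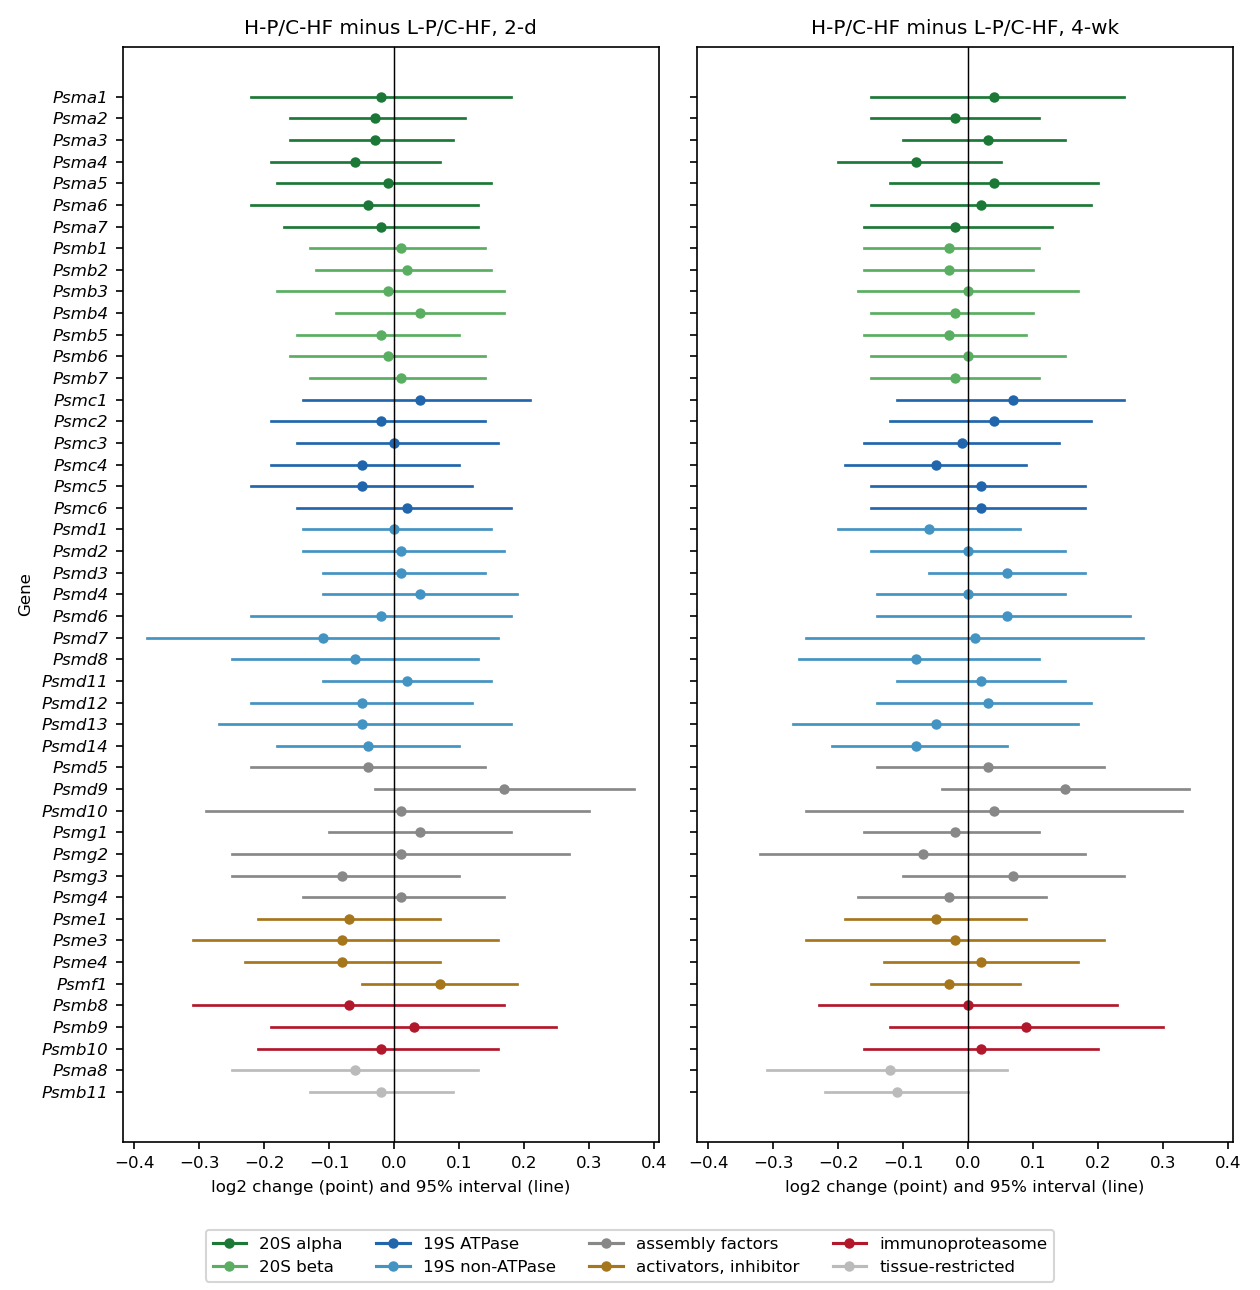
Log2 change between diets (horizontal axis, above 0 where H-P/C-HF was higher) of each proteasome gene after 2-d (left) and 4-wk (right), as a point with its 95% interval from limma, coloured by class. All 47 intervals include 0 after 2-d, and after 4-wk Psmb11 touches it with an unadjusted p of 0.0495.

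The second question was what changed between 2-d and 4-wk within each diet, and here a small number of genes rose. In L-P/C-HF mice 4 of the 47 genes rose and 0 fell (adjusted p under 0.05), against 4.76% and 1.25% of all genes. At an unadjusted p under 0.05, 12 were higher and 0 lower, against 10.6% and 5.22%. In H-P/C-HF mice 6 rose and 0 fell, against 4.16% and 1.87% of all genes, and without adjustment 13 were higher and 0 lower, against 9.75% and 7.75%. The 4 genes that rose in L-P/C-HF mice, Psmb7, Psmd7, Psmd8 and Psmd9, were among the 6 that rose in H-P/C-HF mice, where Psma1 and Psmd5 also passed. Sharing of this kind was common, since over all genes 656 passed in both diets, which is 60.0% of the 1093 in L-P/C-HF and 59.7% of the 1098 in H-P/C-HF. The diets share no arrays in these comparisons. The median log2 change of the 47 genes was 0.067 in L-P/C-HF and 0.051 in H-P/C-HF mice, against 0.007 and -0.017 over all genes.

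Psmd9, a chaperone that helps build the base of the cap, had lowest, median and highest levels of 8.39, 9.11 and 9.31 in L-P/C-HF 2-d mice and 9.04, 9.47 and 9.64 in L-P/C-HF 4-wk mice, and 8.63, 9.15 and 9.57 in H-P/C-HF 2-d mice and 9.26, 9.57 and 9.98 in H-P/C-HF 4-wk mice. The log2 change was 0.46 in L-P/C-HF (standard error 0.10, adjusted p = 0.000928 from limma) and 0.44 in H-P/C-HF mice (0.10, adjusted p = 0.00222), and 11 of 12 and 12 of 12 of the 4-wk mice lay above the 2-d median. The durations overlapped in both diets. Psmd8, a lid subunit needed to close the cap, had lowest, median and highest levels of 10.25, 10.93 and 11.15 in L-P/C-HF 2-d mice and 10.80, 11.29 and 11.50 in L-P/C-HF 4-wk mice, and 10.41, 10.81 and 11.02 in H-P/C-HF 2-d mice and 10.75, 11.20 and 11.51 in H-P/C-HF 4-wk mice. It rose by 0.43 in L-P/C-HF (standard error 0.09, adjusted p = 0.0013 from limma) and by 0.41 in H-P/C-HF mice (0.09, adjusted p = 0.00269), with 11 of 12 mice above the 2-d median in each diet. The lowest 4-wk mice lay inside the 2-d range in both diets.

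Psmd7, the lid partner of the deubiquitinase Psmd14, had lowest, median and highest levels of 8.20, 8.90 and 9.67 in L-P/C-HF 2-d mice and 8.50, 9.38 and 9.69 in L-P/C-HF 4-wk mice, and 8.54, 8.74 and 9.29 in H-P/C-HF 2-d mice and 8.82, 9.29 and 9.89 in H-P/C-HF 4-wk mice. Its log2 change was 0.41 in L-P/C-HF (standard error 0.13, adjusted p = 0.0470 from limma) and 0.53 in H-P/C-HF mice (0.13, adjusted p = 0.00794). In L-P/C-HF mice the ranges overlapped almost fully, and 10 of 12 of the 4-wk mice lay above the 2-d median, against 12 of 12 in H-P/C-HF mice. Psmb7, whose levels were given above, rose by 0.23 in L-P/C-HF (standard error 0.06, adjusted p = 0.0174) and by 0.20 in H-P/C-HF mice (0.07, adjusted p = 0.0497), with 11 of 12 mice above the 2-d median in each. Its catalytic neighbours Psmb5 and Psmb6 did not pass, at 0.05 and -0.03 in L-P/C-HF and 0.04 and -0.02 in H-P/C-HF mice.

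Psma1, an alpha ring subunit, had lowest, median and highest levels of 9.81, 10.34 and 10.75 in L-P/C-HF 2-d mice and 10.02, 10.59 and 10.79 in L-P/C-HF 4-wk mice, and 9.87, 10.27 and 10.47 in H-P/C-HF 2-d mice and 10.16, 10.59 and 10.86 in H-P/C-HF 4-wk mice. Its log2 change was 0.34 in H-P/C-HF mice (standard error 0.10, adjusted p = 0.0252 from limma) and 0.27 in L-P/C-HF mice (0.10, adjusted p = 0.0758), where it did not pass. Psmd5, another chaperone of the cap base, had lowest, median and highest levels of 8.54, 8.89 and 9.36 in L-P/C-HF 2-d mice and 8.74, 9.14 and 9.48 in L-P/C-HF 4-wk mice, and 8.62, 8.88 and 9.06 in H-P/C-HF 2-d mice and 8.81, 9.14 and 9.63 in H-P/C-HF 4-wk mice. It changed by 0.32 in H-P/C-HF mice (standard error 0.09, adjusted p = 0.0165) and by 0.25 in L-P/C-HF mice (0.09, adjusted p = 0.0772). Whether the change of Psma1 or Psmd5 differs between diets is the difference of diet effects, whose unadjusted p was 0.655 and 0.554. Psma2, Psma7, Psmb2 and Psmc6 had an unadjusted p under 0.05 in both diets without passing the adjusted test, with log2 changes between 0.14 and 0.21.

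By class, with the count in L-P/C-HF mice first, 0 and 1 of the 7 alpha subunits rose, 1 and 1 of the 7 beta subunits, 0 and 0 of the 6 ATPases, 2 and 2 of the 11 other cap subunits, and 1 and 2 of the 3 cap assembly factors. In the remaining classes, 0 genes passed in either diet. The lowest values were -0.17 for Psmd6 in L-P/C-HF and -0.13 for Psmb3 in H-P/C-HF mice, and neither passed. The immunoproteasome did not pass in either diet, with Psmb8 at -0.10 (standard error 0.12, 95% interval -0.34 to 0.13) and -0.04 (0.12, -0.28 to 0.20), Psmb9 at -0.08 (0.11, -0.29 to 0.14) and -0.02 (0.11, -0.23 to 0.20), and Psmb10 at -0.06 (0.09, -0.24 to 0.12) and -0.01 (0.09, -0.20 to 0.17) in L-P/C-HF and in H-P/C-HF mice. On their brightest probe sets the activators ran from -0.15 (Psme3) to 0.01 (Psme1) in L-P/C-HF and from -0.10 to 0.04 in H-P/C-HF mice. Other probe sets of Psme3 and Psme4 are given below. Psmf1 was at 0.11 and 0.01.

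The rises were not seen on other probe sets of the same genes where there were any. Psmd8, Psmb7 and Psmd5 each have 1 probe set, and the 2 dimmer probe sets of Psmd7, the 2 of Psmd9 and the 3 of Psma1 gave log2 changes between -0.19 and 0.10, none past the threshold. Their mean levels were 4.57 to 7.39, below the median of 7.56 over all genes. Among all 53 other probe sets of the 47 genes, 3 rose in L-P/C-HF and 2 in H-P/C-HF mice, and 0 fell. Of all genes on their brightest probe sets, 4.76% and 4.16% rose and 1.25% and 1.87% fell, so these counts lie near the common share. The other probe sets that rose were single ones of Psma6 and Psmd4 in L-P/C-HF, of Psmd11 in H-P/C-HF, and of Psme3 in both (0.30 and 0.30). The brightest probe sets of Psma6, Psmd4, Psmd11 and Psme3 did not pass in those comparisons. That of Psme3 had the opposite sign (-0.15 and -0.10). Psme4 had 0.44 and 0.50 on a probe set of mean level 9.93, without passing. Its brightest probe set had group means of 10.87 and 10.79 at 2-d against 10.75 and 10.77 at 4-wk. The direction of Psme3 and Psme4 thus depended on the probe set.

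The RNA quality index moved with feeding duration. It is the mean difference, 3′ minus 5′ on the log2 scale, between control probe sets at the 2 ends of Gapdh and beta-actin. A higher value means relatively less signal from the 5′ end, and the index does not by itself show how intact the RNA was. The study kept only RNA above an integrity threshold, and the index was not compared with those integrity numbers. The index had lowest, median and highest values of 0.29, 0.44 and 0.90 in L-P/C-HF 2-d, 0.33, 0.45 and 0.75 in H-P/C-HF 2-d, 0.16, 0.24 and 0.39 in L-P/C-HF 4-wk and 0.13, 0.25 and 0.51 in H-P/C-HF 4-wk mice. Its medians were close between diets and higher at 2-d than at 4-wk, with overlap. With the index as a covariate, 0 of the 47 genes passed in either diet, against 1.19% of all genes higher and 0.286% lower in L-P/C-HF and 1.24% and 0.61% in H-P/C-HF mice. The log2 changes of Psmd9 became 0.14 and 0.16, of Psmd8 0.08 and 0.11, of Psmd7 0.05 and 0.22, and of Psmb7 0.05 and 0.04 in L-P/C-HF and in H-P/C-HF mice. Since the index and the duration are partly confounded, this fit does not separate them.

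**Figure D3:**
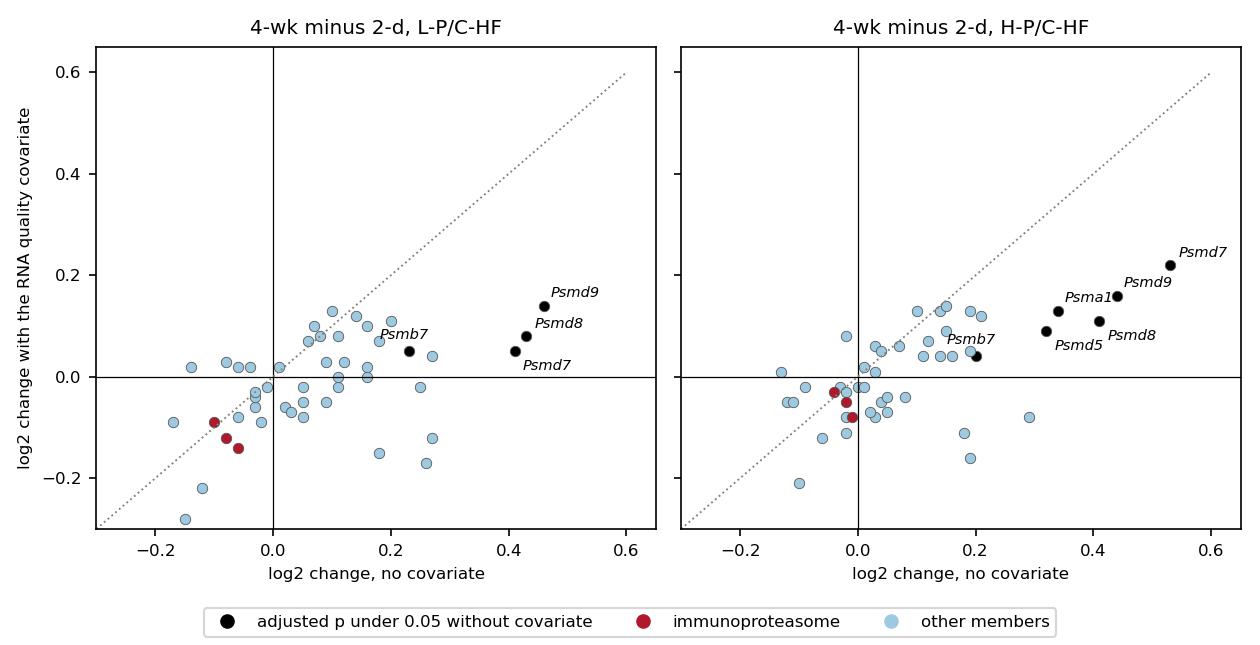
Log2 change, 4-wk minus 2-d, of the 47 proteasome genes in L-P/C-HF (left) and H-P/C-HF mice (right), without (horizontal axis) and with (vertical axis) the RNA quality index as a covariate, with a dotted line where both would be equal. The genes that passed without the covariate (black, named) lie at 0.20 to 0.53 on the horizontal axis and at 0.04 to 0.22 on the vertical axis, and the 3 immunoproteasome subunits (red) lie at or below 0 on both.

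Within groups, where duration is constant, the same genes followed the index from mouse to mouse. In a fit with group means and the index, the slope (log2 level per unit of index) was negative at an adjusted p under 0.05 for 14 of the 47 genes and positive for 1, Psmb3, against 6.98% and 0.951% of all genes. All 6 genes that rose with time were among the 14, with slopes of -1.48 for Psmd8 (standard error 0.16, adjusted p = 7.65e-10 from limma), -1.40 for Psmd9 (0.20, adjusted p = 4.14e-07), -1.54 for Psmd7 (0.31, adjusted p = 0.000347), -1.15 for Psmd5 (0.19, adjusted p = 1.28e-05), -0.99 for Psma1 (0.24, adjusted p = 0.00328) and -0.80 for Psmb7 (0.15, adjusted p = 9.86e-05). All 3 cap assembly factors and 4 of the 11 other cap subunits were among them. Psmd10, Psmg2 and Psmd13 had slopes of -1.82, -1.68 and -1.44 without passing between durations. For the immunoproteasome 0 of 3 slopes passed, with 0.04 for Psmb8, -0.18 for Psmb9 and -0.35 for Psmb10. Each slope was shared by the 4 groups, and slopes for each group are not given here. The index varied more at 2-d (SD 0.19 and 0.13, L-P/C-HF first) than at 4-wk (0.07 and 0.11). Array A01, a potential outlier in the study's quality tests, had the highest index, 0.90. It was the lowest L-P/C-HF 2-d array for Psmd8, Psmd7, Psmd5, Psma1 and Psmb7. The slopes without A01 are not given here.

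**Figure D4:**
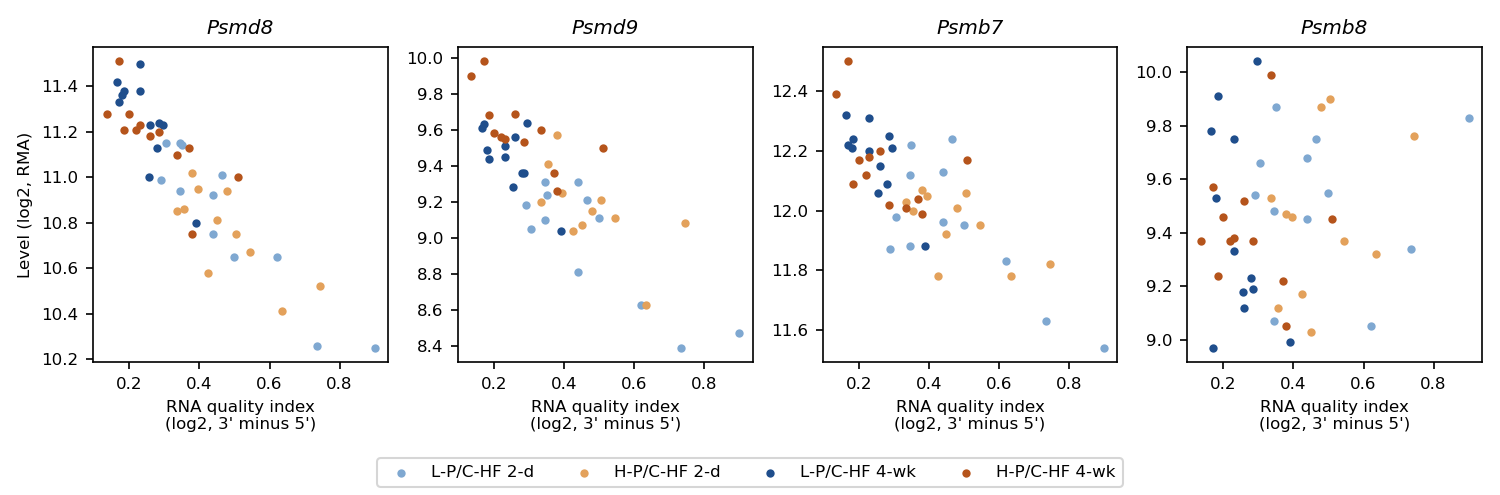
Level (log2 signal, vertical axis) against the RNA quality index (log2, 3′ minus 5′ control signal, horizontal axis) for 3 genes that rose with time and for Psmb8, with 1 point per mouse and colours for the 4 groups. Psmd8, Psmd9 and Psmb7 fall as the index rises, with slopes of -1.48, -1.40 and -0.80, and Psmb8 has a slope of 0.04. Each slope is shared by the 4 groups, with group means removed.

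Markers of other liver cells also moved with duration. Of 16 Kupffer cell (liver macrophage) markers 15 rose in L-P/C-HF and 12 in H-P/C-HF mice, and their mean level lay between 8.07 and 9.19 and between 8.16 and 8.90 at 2-d, against 8.85 to 10.16 and 8.21 to 9.70 at 4-wk. Of 12 sinusoidal endothelium markers 11 and 12 rose, and their mean level went from 7.93 to 8.61 and 7.84 to 8.49 up to 8.18 to 9.15 and 8.10 to 9.12. Of 9 stellate cell markers 5 and 4 rose, of 17 lymphocyte markers 2 and 2, of 5 cholangiocyte markers 0 and 0 and of 9 hepatocyte markers 0 and 0, while 1 hepatocyte marker, Hnf4a, fell in both diets. The shares of all genes were 4.76% and 4.16% higher and 1.25% and 1.87% lower. The ranges of the Kupffer and endothelial lists at 2-d and 4-wk overlapped in both diets. With the RNA quality index as a covariate 10 and 6 of the Kupffer and 11 and 10 of the endothelial markers still rose, against 1.19% and 1.24% of all genes. The part of these cells and of RNA quality in the rise of the 6 proteasome genes was not tested. Between diets 0 markers of these lists passed the test at either duration. Of all genes, 0.011% passed as higher and 0.0055% as lower at 2-d, and 0% and 0% at 4-wk. Kupffer markers lay lower in H-P/C-HF for 16 of 16 at 2-d (median log2 change -0.121) and 15 of 16 at 4-wk (-0.301), where 5 had an unadjusted p under 0.05. Endothelial markers were lower for 6 of 12 at 2-d and 12 of 12 at 4-wk (-0.076). Of all 18193 genes, 8512 were lower at 2-d (median log2 change 0.006) and 10865 at 4-wk (-0.016). At 4-wk 2.16% of all genes were lower at an unadjusted p under 0.05 from limma. Markers of 1 cell type can vary together, so they do not count as separate observations.

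Other genes of the pathway were taken from a fixed list of 32 ubiquitin and proteasome partners (shuttle factors, unfolding machinery, ubiquitin genes and ligases at the proteasome, and the regulators Nfe2l1 and Nfe2l2), of which 23 were measured. Between diets 0 passed at 2-d, against 0.011% of all genes higher and 0.0055% lower, and 0 at 4-wk, against 0% and 0%. Between durations 4 rose in L-P/C-HF and 4 in H-P/C-HF mice, against 4.76% and 4.16% of all genes. None fell in either diet, against 1.25% and 1.87% of all genes. Zfand5, which binds proteasomes and increases their activity, rose by 0.42 in L-P/C-HF (adjusted p = 6.67e-05 from limma) and by 0.34 in H-P/C-HF mice (adjusted p = 0.00227), Sqstm1, an autophagy receptor of ubiquitin chains, by 0.29 and 0.35, and Nploc4, a cofactor of the unfolding enzyme Vcp, by 0.33 and 0.32. The ligase Ube3c rose in L-P/C-HF mice (0.24), and Nfe2l2, the antioxidant regulator, in H-P/C-HF mice (0.38). With the RNA quality index as a covariate 1 and 0 of the 23 passed, the 1 being Zfand5. With it 1.19% and 1.24% of all genes rose and 0.286% and 0.61% fell.

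Of 12 genes of MHC class I presentation 0 passed between diets. Of all genes, 0.011% were higher and 0.0055% lower at 2-d, and 0% and 0% at 4-wk. Between durations 0 of the 12 passed, against 4.76% of all genes higher and 1.25% lower in L-P/C-HF mice. In H-P/C-HF mice the shares were 4.16% and 1.87%. With so few genes, 0 lies near these shares. The smallest unadjusted p between durations was that of Nlrc5, the activator of class I genes, at -0.36 in both diets (adjusted p = 0.0654 and 0.0782 from limma). Of 18 interferon-response genes 0 passed between diets, against the same shares of all genes as for class I presentation. At an unadjusted p under 0.05, 3 were higher after 2-d and 1 after 4-wk, against 2.04% and 0.83% of all genes. Between durations 1 fell and 0 rose in L-P/C-HF mice, against 1.25% and 4.76% of all genes. In H-P/C-HF mice 3 fell and 1 rose, against 1.87% and 4.16%. Iigp1, an interferon-induced GTPase, fell by 0.32 and by 0.31, Ifit1 and Usp18 fell by 0.60 and by 0.62 in H-P/C-HF mice, and Ifit2 rose by 0.28 there. With the covariate 0 interferon-response genes passed between durations, against 1.19% and 1.24% of all genes higher and 0.286% and 0.61% lower.

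Beyond the groups, the immunoproteasome subunits differed from mouse to mouse more than most proteasome genes. Their SD within groups was 0.22 to 0.29, against a median of 0.19 over the 47 genes and of 0.19 over all genes. After removing group means, the 47 mice varied together on all 3 genes. Psmb8 and Psmb9 had Pearson's r = 0.80 and Spearman's rho = 0.82, Psmb8 and Psmb10 r = 0.86 and rho = 0.86, and Psmb9 and Psmb10 r = 0.76 and rho = 0.80 (permutation within groups, p = 1e-05 for each r and rho, the smallest that 1e+05 resamples can give, and adjusted p = 2e-05 over 6 pairs). Within the 4 groups r ran from 0.78 to 0.86, from 0.75 to 0.93 and from 0.72 to 0.84. Without the 2 mice farthest from the median of the first gene it was 0.80, 0.84 and 0.70. The highest mice on the mean of the 3 genes were B42 (H-P/C-HF 4-wk), 0.49 above its group, and B29 (H-P/C-HF 2-d), 0.43 above, and the lowest was A06 (L-P/C-HF 2-d), at -0.51, so both ends came from different groups.

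Correlations with the constitutive counterparts were lower in value, a difference that was not tested. Psmb8 and Psmb5 had r = 0.51 and rho = 0.60 (permutation p = 0.00022 and 2e-05, adjusted p = 0.00033 and 3e-05), Psmb9 and Psmb6 r = 0.43 and rho = 0.38 (permutation p = 0.0041 and 0.013, adjusted p = 0.0049 and 0.013), and Psmb10 and Psmb7 r = 0.40 and rho = 0.47 (permutation p = 0.007 and 0.0011, adjusted p = 0.007 and 0.0013). Without the 2 farthest mice r was 0.67, 0.39 and 0.39. In H-P/C-HF 4-wk mice alone r was 0.09, -0.15 and 0.12, against 0.75, 0.74 and 0.56 in L-P/C-HF 2-d mice. These 3 relations depended on the scaling of the arrays. After cyclic loess between arrays they were 0.01, -0.01 and -0.06, whereas the 3 relations within the immunoproteasome stayed at 0.70, 0.76 and 0.64.

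Across all core and cap genes, levels rose and fell together between mice on the deposited scale. The median pairwise r was 0.70 over 91 pairs of core subunits, 0.69 over 136 pairs of cap subunits and 0.70 over 238 pairs of a core and a cap subunit, against 0.04 over pairs of all genes. It was 0.49 between core and immunoproteasome and 0.43 between cap and immunoproteasome. These values describe 47 arrays and share their scaling, and after cyclic loess they fell to 0.13, 0.22, 0.20, 0.09 and 0.01, against 0 for all genes and 0.70 within the immunoproteasome. On the deposited scale with the RNA quality index as a covariate, without loess, they were 0.72, 0.74, 0.73, 0.51 and 0.48. Psmd8 and Psmb3, which had slopes of opposite sign against the index, had r = -0.163 on the deposited scale, the lowest of all core and cap pairs.

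**Figure D5:**
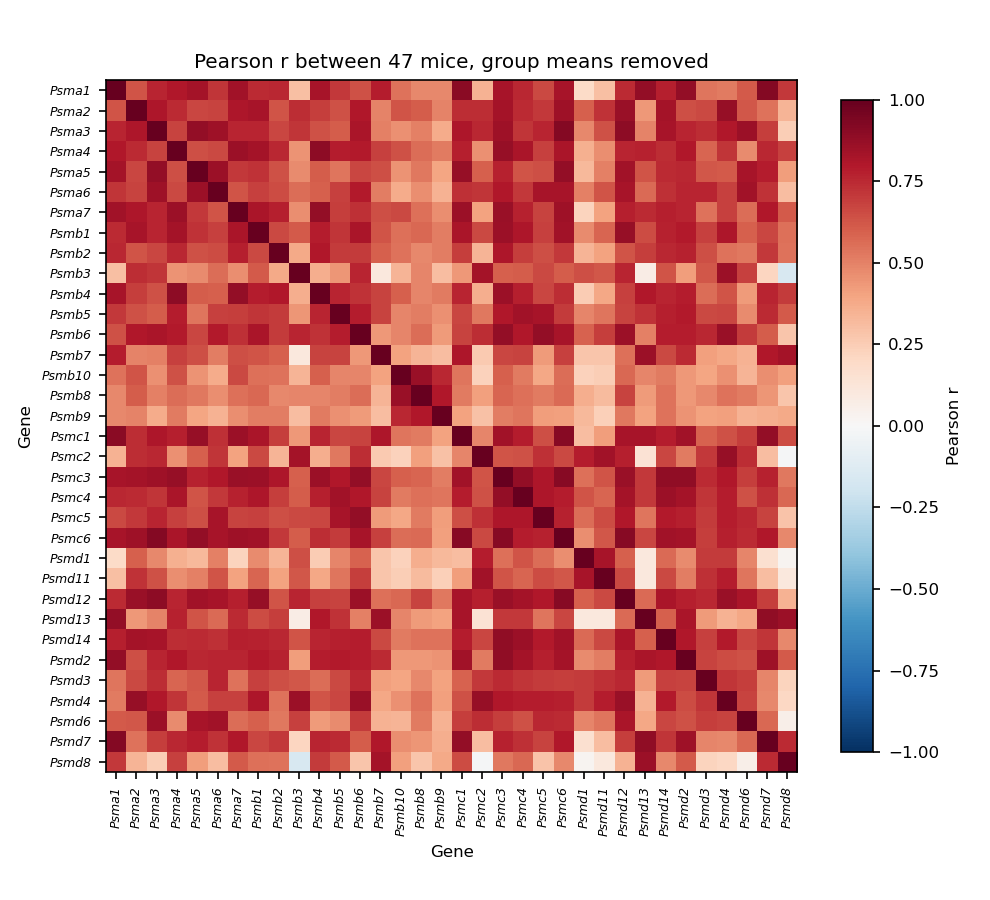
Pearson's r between mice (colour, -1 to 1) for each pair of the 31 constitutive core and cap subunits and the 3 immunoproteasome subunits, over 47 mice with group means removed. On the deposited scale shown, the 3 immunoproteasome subunits form a block at 0.76 to 0.86 and have a median r of 0.49 with the core, which was 0.09 after cyclic loess.

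Genes outside the proteasome that varied with the mean of Psmb8, Psmb9 and Psmb10 were looked at by list. The 18 interferon-response genes had a median r of 0.65, 18 of 18 positive, and of 0.56 after cyclic loess, again 18 of 18 positive, against 0.13 and -0.01 over all genes. Tap1, the neighbour of Psmb8 and Psmb9 on chromosome 17, had the highest r of all listed genes, 0.89 (0.81 after cyclic loess), and Tap2 had 0.81. Gbp6, an interferon-induced GTPase, had 0.76 and Irf7, a regulator of interferon genes, 0.73. The 12 genes of MHC class I presentation had a median of 0.50 (0.21 after cyclic loess), and the 16 Kupffer cell markers of 0.49 (0.48), 16 of 16 positive and at most 0.56 (Ctss). The 12 sinusoidal endothelium markers had a median of 0.38 (0.16), 12 of 12 positive on both scales, with Stab2, a scavenger receptor, at 0.70. Lymphocyte markers had a median of -0.10 (0.13), although Cd74, the invariant chain of MHC class II, had 0.59, and hepatocyte markers had -0.02. Genes of 1 list can vary together, so a count of positive r is not a count of separate observations. The share of all genes with a positive r is not given here. Several of these lists also varied with the mean of the core and cap. There the medians were 0.60 for MHC class I presentation and 0.34 for endothelium (0.20 and 0.11 after cyclic loess). They were 0.26 for interferon response and 0.15 for Kupffer markers (0 and -0.03), against 0.11 (-0.03) over all genes. Tap1, Tap2 and Stab2 had 0.60, 0.70 and 0.58 with the core and cap (0.16, 0.50 and 0.06 after cyclic loess). The 23 partners had 0.49 with the immunoproteasome and 0.80 with the mean of the core and cap (-0.02 and 0.31 after cyclic loess), and Vcp had 0.93 with the core and cap. Psmb8, Psmb9 and Psmb10 are known to be expressed in leukocytes as well as hepatocytes, and the part of such cells in these relations was not tested.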

How the data were processed

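Liver RNA of 48 male mice was measured on Affymetrix mouse arrays, 1 mouse per array. The authors processed the arrays by RMA (background correction, normalisation between arrays, 1 value per probe set) and deposited the result, whose values have the spread of log2 signals, although the base is not given in the sources used here. Of the 45101 deposited probe sets, 45037 were tested and 64 controls set aside, and 34945 carry 1 gene symbol in the platform annotation, 932 several and 9160 none. Each gene was read through its brightest probe set. Groups come from the sample titles, B25 was left out, and each sample is a separate mouse. Linear models with 4 group means were fitted in limma (version 3.58.1, R 4.3.3; lmFit, contrasts, eBayes with a trend), two-sided, with Benjamini-Hochberg adjustment over all probe sets, a threshold of 0.05 and 95% intervals. Precision depends on how many arrays each group holds and on the spread of each probe set between mice. The procedure was tested on simulated data. The study used one-way ANOVA and Global Error Assessment at a p of 0.001. The latter was not run here, and 0, 0, 3 and 4 proteasome genes had an unadjusted limma p under 0.001 for diet at 2-d, diet at 4-wk and duration in each diet, L-P/C-HF first. The share of all genes at that threshold is not given here. Any proteasome gene could be named, and of other lists the genes with the smallest p (up to 4) or the highest correlation. The members, lists and tests were chosen with earlier results of these data known. Alternatives were B25 included, 3 further arrays left out, array weights, median centring, cyclic loess, brighter probe sets, separate fits, no trend, the RNA quality covariate, a replicate factor, the mean of probe sets and ANOVA. Promoter sequences are RefSeq's.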

Additional observations from a re-analysis of the deposited data

How the results depend on the processing

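No proteasome gene passed between diets, or for the difference of diet effects, under any of the 12 alternatives that gave a value. Between durations in L-P/C-HF mice, where 4 genes rose, 3 rose with B25 included and with median centring, 7 when A24, A01 and A09 were dropped, 8 with array weights, 10 after cyclic loess, 2 in a separate fit, 2 by ANOVA, 2 with the mean of all probe sets per gene and 0 with the RNA quality covariate. In H-P/C-HF mice, where 6 rose, it was 10 after cyclic loess, 3 with the mean of probe sets and 0 with the covariate. Apart from the covariate, the share of all genes passing under each alternative is not given here. These counts therefore do not set the proteasome against other genes, and their cause was not tested. Correlations were 0.54 for Psmb10 and Psmb7 with B25, and after cyclic loess 0.70 for Psmb8 and Psmb9, 0.64 for Psmb9 and Psmb10, 0.01 for Psmb8 and Psmb5, -0.01 for Psmb9 and Psmb6 and -0.06 for Psmb10 and Psmb7. Changes of the immunoproteasome near 0 turned sign: with B25 Psmb9 between diets at 2-d (-0.04) and Psmb8, Psmb9 and Psmb10 between durations in H-P/C-HF mice (0.02, 0.05 and 0.06), with array weights Psmb9 and Psmb10 there (0.01 and 0.01), Psmb8 between diets at 4-wk with centring or cyclic loess (0.01 and 0.01), and with these 3 arrays dropped the difference of diet effects of Psmb8 (0.00) and Psmb9 (-0.01). Replicate numbers of the labels were not taken to pair the mice: 20 of 69 same-numbered pairs had a correlation above 0.1 (6 of 11 between the diets at 2-d, median 0.246, and 2 of 12 at 4-wk, median -0.032), and 5 of 47 arrays matched their own number best. With the replicate number as a block, 4 and 6 genes passed between durations, and Psmb10 was at 0.00 in H-P/C-HF mice. Single replicates were not left out in turn, as groups held 11 or 12 mice. The 95% intervals of core and cap genes between diets reached from -0.38 to 0.27, the limits of the widest ones.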
